A study of Mus musculus with 6 samples.

Results

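The genes described here are 9 enzymes that release arachidonate from brain membranes and turn it into prostaglandins, namely the phospholipases A2 Pla2g4a and Pla2g6, the cyclooxygenases Ptgs1 and Ptgs2, the prostaglandin D synthases Ptgds and Hpgds, and the prostaglandin E synthases Ptges, Ptges2 and Ptges3. They were taken by symbol from the 23282 entries of the forebrain count tables, and all 9 were found and passed the filter on low counts. RNA came from 1 forebrain hemisphere, without olfactory bulb and cerebellum, of each of 6 adult male C57BL/6J mice. The 3 mice labelled as exposed to water avoidance stress (WAS) had stood for 1 h on a platform surrounded by water, and the 3 mice labelled control had stood for 1 h on the same platform with no water around it. All were killed right after the procedure, so the samples hold a single time point.

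Phospholipases A2 cut the fatty acid from the middle position of a membrane phospholipid, and the arachidonate they free is the substrate of the cyclooxygenases, which make prostaglandin H2. Terminal synthases then turn that short-lived intermediate into prostaglandin D2, the main prostaglandin of the rodent brain and a sleep-promoting signal, or into prostaglandin E2, a mediator of fever and of neuronal responses to inflammation. Ptgs2 is known as an immediate early gene of cortical and hippocampal excitatory neurons, whereas Ptgs1 and the cytosolic synthases are regarded as constitutive, and Ptgds is known from the leptomeninges, the choroid plexus and oligodendrocytes.

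The libraries were made by QuantSeq 3′ mRNA-Seq, which gives about 1 read per transcript next to its poly(A) tail, and held 9248520 to 10502029 counts each. Levels are given in CPM, counts scaled to a library total of 1000000. Because a transcript is read at its end only, CPM were compared between genes without division by length. Neuronal, astrocyte, oligodendrocyte and microglial markers were present in every library, as the labelled tissue requires. Choroid plexus markers differed widely, with a summed level, mostly of Ttr, of 63.9 CPM in WAS replicate 1 and 19.3 CPM in control replicate 2 against 954 to 1268 CPM in the other 4 libraries, and the choroid plexus genes Slc4a5 and Kcne2 were at 0 in WAS replicate 1. Summed markers of cortical excitatory neurons were lower in the libraries labelled WAS (6398 to 8256 CPM) than in those labelled control (8638 to 10012 CPM). WAS replicate 2 differed less from control replicates 1 and 2 (chi-square per degree of freedom 5.88 and 6.15) than from WAS replicate 1 (18.8). The count columns carry the heading WC in the files labelled WAS and WS in those labelled control, so groups are named here by their labels, and an exchange of the labels would invert every direction given below. In bulk RNA such as this, fewer cells of a type and less RNA per cell cannot be told apart.

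The 9 genes spanned about 3 orders of magnitude. Ptgds, the lipocalin-type prostaglandin D synthase, was the entry with rank 32 of all 23282 by mean level, at 1765 CPM over the 6 libraries, and alone made up 84.7% to 91.2% of the counts of the 9 genes. Ptges3, also known as the Hsp90 co-chaperone p23, followed at 155 CPM. Neither range overlapped with the gene next below, and Ptgds stood 11.4-fold above Ptges3 and Ptges3 8.90-fold above Ptges2. Ptges2 (17.4 CPM), Ptgs1 (14.1 CPM), Pla2g6 (14.1 CPM) and Hpgds (13.8 CPM) formed a middle tier whose ranges overlapped, so that their order is not resolved beyond the spread between libraries. Ptgs2 lay below all of these in all 6 libraries, at 4.28 CPM, 3.22-fold below Hpgds. Ptges (1.00 to 2.92 CPM) and Pla2g4a (1.10 to 1.84 CPM) were the lowest by mean, with 18.7 and 15.0 reads per library, and their ranges overlapped with each other. The range of Ptgs2 overlapped with theirs too, since in WAS replicate 1 Ptgs2, at 0.894 CPM, lay below Ptges (1.99 CPM) and Pla2g4a (1.29 CPM).

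**Figure D1:**
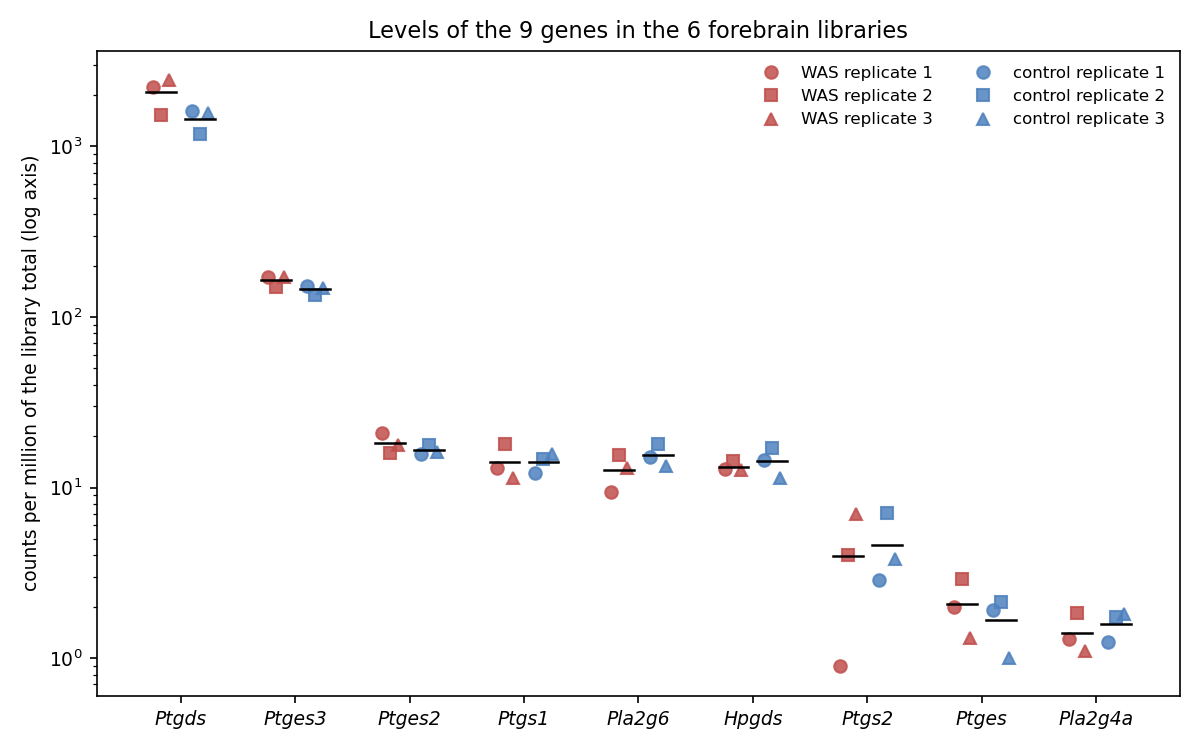
Level of each of the 9 genes in each of the 6 libraries, in CPM on a log axis, with genes ordered by mean level. Red symbols are libraries labelled WAS, blue symbols libraries labelled control, the symbol shape gives the replicate number and black lines are group means (n = 3). Ptgds lies at 1185 CPM or above in every library, and the widest spread among libraries is that of Ptgs2.

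Among the phospholipases A2, Pla2g6 outnumbered Pla2g4a in every library. Pla2g6 (chr15:79286228-79328390, minus strand, GRCm38) encodes the calcium-independent phospholipase A2 of group VI, mutated in infantile neuroaxonal dystrophy. The WAS libraries held 95, 143 and 130 of its reads in the order of their replicate numbers, used throughout, and the control libraries 158, 187 and 133. WAS replicates 1 and 3 lay below every control library, but WAS replicate 2 did not, and the groups overlapped. The group means, WAS first, were 12.6 ± 3.03 and 15.5 ± 2.37 CPM (SD, n = 3 each). The log2 fold change, WAS over control, was -0.33 (SE 0.20, 95% interval -0.77 to 0.11), with an adjusted p of 0.784 in the quasi-likelihood test of edgeR. Without WAS replicate 2 the log2 fold change was -0.50, with an unadjusted p of 0.0301 and an adjusted p of 0.282 in edgeR, in a fit in which 13.7% of all genes had an unadjusted p under 0.05. Without WAS replicate 1 it was -0.16 (unadjusted p = 0.403) and without control replicate 2 it was -0.20 (unadjusted p = 0.391), both by edgeR. Pla2g4a (chr1:149829618-149961290, minus strand) encodes the cytosolic, calcium-activated enzyme that prefers arachidonate. It had 13, 17 and 11 reads in the WAS replicates and 13, 18 and 18 in the control replicates. These counts were so low that their coefficient of variation over the 6 libraries, 21.7%, did not exceed the 25.8% that counting error alone gives. The log2 fold change of -0.21 had a 95% interval from -1.14 to 0.71, which on a linear scale runs from 0.453 to 1.64 times the control level, so that depth limits what can be said of this gene. Its estimate ran from -0.44 without WAS replicate 2 to -0.066 without WAS replicate 3. Pla2g6 made up 88.0% to 92.4% of the counts of this pair, with 89.8% ± 2.16 (SD, n = 3) in the WAS and 90.6% ± 2.23 (SD, n = 3) in the control libraries (exact permutation test, two-sided p = 0.7, where 3 libraries against 3 cannot give a p below 0.1).

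The cyclooxygenases differed from each other in how they varied. Ptgs1 (chr2:36230426-36252272, plus strand) encodes the constitutive isoform, COX-1, and had 131, 166 and 114 reads in the WAS replicates and 127, 152 and 157 in the control replicates. Its group means were almost equal, 14.1 ± 3.40 CPM (SD, n = 3) and 14.2 ± 1.87 CPM (SD, n = 3), and the log2 fold change of -0.043 (95% interval -0.47 to 0.39, adjusted p = 0.979 by edgeR) changed sign when WAS replicate 1, WAS replicate 3 or control replicate 3 was left out. Ptgs2 (chr1:150100031-150108227, plus strand) encodes the inducible isoform, COX-2. Its reads numbered 9, 37 and 70 in the WAS libraries and 30, 74 and 38 in the control libraries. The highest library of each group was thus nearly equal to that of the other, and WAS replicate 1 was the lowest of all. The exact 95% Poisson interval of its 9 reads, 4.12 to 17.1, did not reach those of any other library, of which the lowest started at 20.2, and the interval covers counting error only. The range of Ptgs2 over the 6 libraries was 7.97-fold, the widest of the 9 genes, and its coefficient of variation was 56.6%, against 15.2% from counting error alone and a median of 14.7% over all genes tested. For Ptgs1 the range was 1.57-fold and the coefficient of variation 17.4%.

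Between the labelled groups Ptgs2 had 3.97 ± 3.06 CPM (SD, n = 3) and 4.60 ± 2.24 CPM (SD, n = 3), with a log2 fold change of -0.25 (SE 0.55, 95% interval -1.47 to 0.97, adjusted p = 0.964 by edgeR). The estimate was 0.22 without WAS replicate 1, 0.21 without control replicate 2 and -0.96 without WAS replicate 3, so its sign rested on single libraries. As a share of all cyclooxygenase reads, Ptgs2 accounted for 6.43%, 18.2% and 38.0% in the WAS replicates and for 19.1%, 32.7% and 19.5% in the control replicates, which gives 20.9% ± 16.0 and 23.8% ± 7.77 (SD, n = 3 each, two-sided p = 0.8 by exact permutation test). Pla2g4a and Ptgs2 are neighbors on chromosome 1, with 138741 bases between them, but the former did not share the wide range of the latter (1.67-fold against 7.97-fold).

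The promoters of the cyclooxygenase genes are shown because both genes encode the same enzyme activity but spread differently over the libraries. Both runs are RefSeq sequence of GRCm38.p6 on the plus strand, from 250 bases before to 30 bases after the annotated start, chr2:36230176-36230455 for Ptgs1 and chr1:150099781-150100060 for Ptgs2, and promoter entries were found for 9 of 9 genes. Capitals mark matches, on either strand, to the core of the cyclic AMP response element (ACGTCA), an E-box (CACGTG), the C/EBP palindrome (TTGCGCAA), a TATA box (TATAAA) and the GC box (GGGCGG).
Ptgs1: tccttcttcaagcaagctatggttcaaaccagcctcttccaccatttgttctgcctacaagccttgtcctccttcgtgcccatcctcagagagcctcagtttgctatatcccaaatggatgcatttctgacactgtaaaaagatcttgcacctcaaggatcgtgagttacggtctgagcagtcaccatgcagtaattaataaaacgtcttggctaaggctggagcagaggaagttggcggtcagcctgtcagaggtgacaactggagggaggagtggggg
Ptgs2: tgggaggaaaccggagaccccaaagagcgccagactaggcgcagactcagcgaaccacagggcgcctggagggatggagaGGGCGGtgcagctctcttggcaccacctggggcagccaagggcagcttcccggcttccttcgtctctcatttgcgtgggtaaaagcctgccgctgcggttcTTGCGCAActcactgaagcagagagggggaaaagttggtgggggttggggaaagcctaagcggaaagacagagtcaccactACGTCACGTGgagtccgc
The window of Ptgs2 held a GC box, the C/EBP palindrome, and a response element core that overlaps the E-box by 2 bases within a run of 10, the latter just after the annotated start. The window of Ptgs1 held none of the 5 motifs, which says only that these letters are not in it. Among 27025 promoter windows of the same length, 7.40% held ACGTCA, 6.89% CACGTG, 0.181% TTGCGCAA, 13.7% TATAAA and 34.9% GGGCGG. The GC content was 49.6% for Ptgs1 and 61.4% for Ptgs2. Of the other 7 genes, Pla2g6 held ACGTCA, Ptges2 held CACGTG, and Ptges, Ptges3 and Pla2g6 held GGGCGG. These matches are a description of sequence and were not related to the counts.

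**Figure D2:**
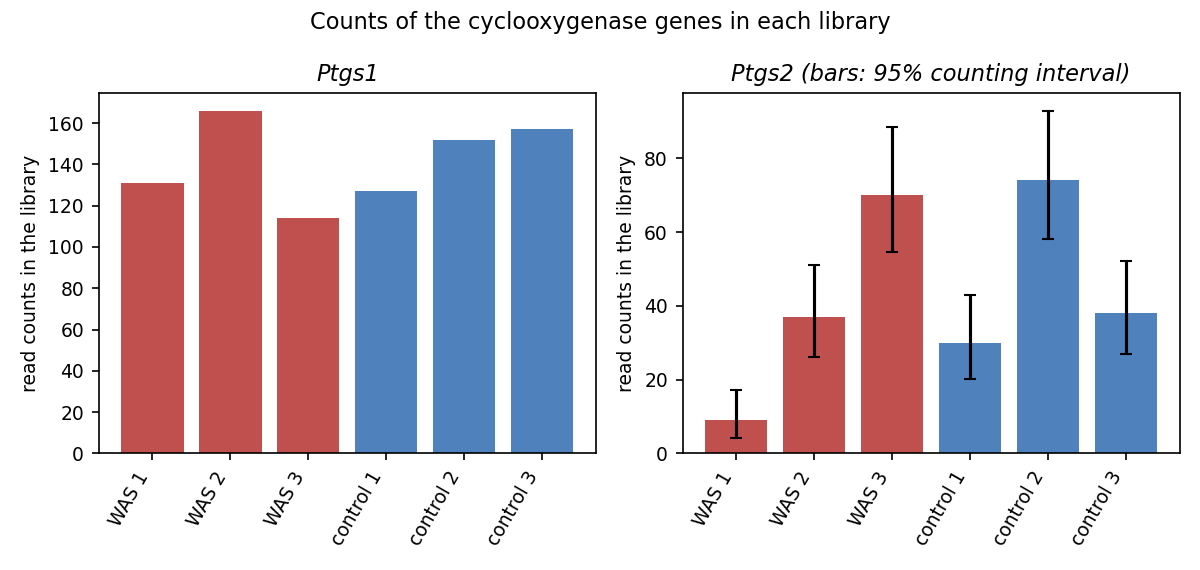
Read counts of Ptgs1 (left) and Ptgs2 (right) in each library, with red bars for libraries labelled WAS and blue bars for libraries labelled control. Error bars on Ptgs2 are exact 95% Poisson intervals, which cover counting error only. Ptgs1 stays between 114 and 166 reads, whereas Ptgs2 ranges from 9 to 74 reads with high and low libraries in both groups.

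Among all genes tested with a mean of at least 10 CPM, 9400 in number, those whose profile over the 6 libraries was nearest to that of Ptgs2 were Gramd4, Sdhd and Pdgfb. Likeness was measured as the root mean square difference of centered log2(CPM + 1), which was 0.26 for Gramd4, 0.30 for Sdhd and 0.31 for Pdgfb, against 0.71 for the deviation of Ptgs2 from its own mean. Gramd4 had 88, 304 and 316 reads in the WAS replicates and 230, 344 and 244 in the control replicates. These genes too were lowest in WAS replicate 1, which holds for 2993 (19.6%) of the 15239 genes tested. Of 20 immediate early genes, 3 were lowest in that library, and their summed level there, 2091 CPM, lay within the 1898 to 2297 CPM of all libraries. Summed markers of forebrain neurons were lowest in that library too, at 4718 CPM against 5001 to 6094 CPM in the others, and those of cortical excitatory neurons were second lowest, at 7291 CPM. Their part in the Ptgs2 values was not tested.

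Ptgds was the gene of the 9 with the smallest p. It lies at chr2:25466709-25470046 on the minus strand and encodes the enzyme that makes prostaglandin D2 in the brain and is secreted into cerebrospinal fluid as beta-trace. The WAS libraries had 22570, 14144 and 24451 reads and the control libraries 17007, 12303 and 15637. WAS replicates 1 and 3 stood above the other 4 libraries, whereas WAS replicate 2 lay below control replicates 1 and 3, so that the groups overlapped. The same arrangement, with WAS replicates 1 and 3 highest, was seen in 2186 (14.3%) of the 15239 genes tested. Ptgds took 0.207% ± 0.0482 of all counts under the WAS label and 0.146% ± 0.0237 under the control label (SD, n = 3 each, two-sided p = 0.3 by exact permutation test). At such counts the counting error was 0.752%, and the coefficient of variation over the libraries was 27.1%.

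In the fit over all genes the level of Ptgds, 2073 ± 482 CPM (SD, n = 3) against 1457 ± 237 CPM (SD, n = 3), gave a log2 fold change of 0.47 (SE 0.16), or 1.39-fold with a 95% interval of 1.08 to 1.77. In edgeR its unadjusted p was 0.0138, rank 355 among all genes tested, and its adjusted p 0.585. The unadjusted call depended on single libraries and on the tool, since limma on quantile-normalized log2 counts gave an unadjusted p of 0.0849 with a log2 fold change of 0.51. Without WAS replicate 2 the log2 fold change was 0.65 and the adjusted p 0.00443, in a fit that called 484 genes (3.18%) at an adjusted p under 0.05, and Ptgds then met the study's criteria, an unadjusted p under 0.05 with at least a 1.5-fold difference, as did 5.45% of all genes. Without WAS replicate 3 it was 0.33 (unadjusted p = 0.0788) and without control replicate 2 it was 0.34 (unadjusted p = 0.0727), both by edgeR. With the replicate number as a block, the log2 fold change was 0.46 and the adjusted p 0.0444 by edgeR, in a fit that called 49 genes (0.322%). The replicate numbers are not taken to pair the samples. The estimate stayed above 0 in each of these fits and in those with other scalings, filters and tools.

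The level of Ptgds was set beside marker lists of the cells known to express it. Summed markers of meningeal fibroblasts were 213, 161 and 226 CPM in the WAS replicates and 152, 102 and 167 CPM in the control replicates. As for Ptgds, WAS replicate 3 was highest, WAS replicate 1 next and control replicate 2 lowest, but the libraries in between were ordered otherwise. All 10 meningeal genes were present in every library and had a log2 fold change above 0 (median 0.46), beside 50.2% of all genes, with 2 of them at an unadjusted p under 0.05, beside 3.85% of all genes higher at that level, and 0 at an adjusted p under 0.05 by edgeR. The most abundant were Igf2 (51.7 CPM, log2 fold change 0.33) and Col1a2 (47.4 CPM, 0.17), and the member with the largest fold, chosen after its values were seen, was the proteoglycan gene Dcn (1.23, adjusted p = 0.498 by edgeR). Oligodendrocyte markers did not follow the same order, with 5826, 6912 and 7897 CPM in the WAS replicates and 7123, 6343 and 6078 CPM in the control replicates and a median log2 fold change of 0.062. The summed choroid plexus level, mostly Ttr, was low in WAS replicate 1, in which Ptgds was high, and lowest in control replicate 2, in which Ptgds was lowest. Astrocyte markers overlapped when summed (4410 to 4565 CPM and 4407 to 4443 CPM), a sum that is mostly Slc1a2 (2760 CPM, log2 fold change -0.10). Of the 8 astrocyte genes, 5 had a log2 fold change above 0 and 3 below 0 (median 0.11), beside 50.2% of all genes above 0. Aqp4 and Aldoc, 2 of the 8, lay higher at an unadjusted p under 0.05 by edgeR, beside 3.85% of all genes. Gfap had 89.0, 44.5 and 92.3 CPM in the WAS libraries and 60.2, 36.5 and 58.5 CPM in the control libraries. It ranked all 6 libraries in the same order as Ptgds. WAS replicates 1 and 3 stood above the other 4 libraries for 14.3% of all genes. Beside that share, they did so for 4 of the 10 meningeal genes and 3 of the 8 astrocyte genes (Gfap, Aqp4 and Aldoc, named after their values were seen). The same held for 1 of the 10 oligodendrocyte genes and 1 of the 10 choroid plexus genes (Otx2). The part of any of these cells in the Ptgds values was not tested.

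**Figure D3:**
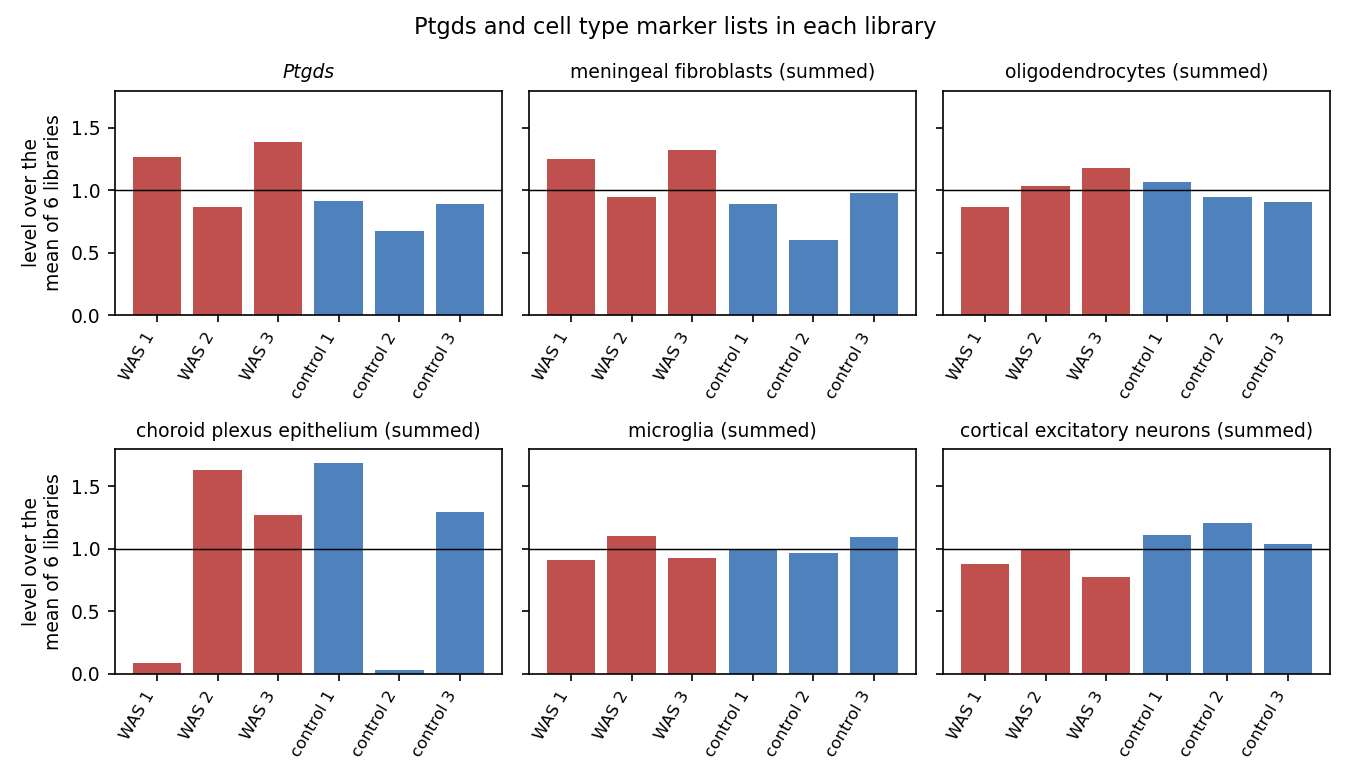
Level of Ptgds and summed level of 5 cell type marker lists in each library, each divided by its mean over the 6 libraries (black line at 1.0), with red bars for libraries labelled WAS and blue bars for libraries labelled control. Ptgds ranges from 0.671 to 1.39 and the meningeal markers from 0.600 to 1.33 with the same libraries highest and lowest, whereas the choroid plexus sum, mostly Ttr, is at 0.0852 in WAS replicate 1 and 0.0257 in control replicate 2.

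By the same measure as above, the genes nearest in profile to Ptgds among 9399 candidates were Amotl2 (root mean square difference 0.059), Gprc5b (0.064) and Iqck (0.069), against 0.35 for Ptgds around its own mean. Amotl2, which encodes an angiomotin-family protein of cell junctions, had 156, 101 and 179 reads in the WAS replicates and 123, 88 and 122 in the control replicates. Gprc5b and Iqck overlap at their ends on opposite strands and had nearly equal counts in each library, for example 573 and 562 in WAS replicate 1. Whether reads were counted by strand is not stated in the sources used here, so these genes are not taken as separate profiles. Hpgds (chr6:65117293-65144908, minus strand), the glutathione-dependent prostaglandin D synthase of microglia and other hematopoietic cells, had 129, 132 and 127 reads in the WAS replicates and 153, 178 and 113 in the control replicates. The WAS libraries lay inside the range of the control libraries, at 13.3 ± 0.870 CPM against 14.3 ± 2.92 CPM (SD, n = 3 each), with a log2 fold change of -0.15 (95% interval -0.54 to 0.24, adjusted p = 0.922 by edgeR). Summed microglial markers overlapped likewise, at 327 to 397 CPM and 348 to 394 CPM. Ptgds made up 98.6% to 99.5% of the reads of the prostaglandin D synthases.

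Of the prostaglandin E synthases, cytosolic Ptges3 supplied 87.2% to 90.1% of the reads in every library. Ptges3 (chr10:128058954-128077272, plus strand) had 1725, 1390 and 1722 reads in the WAS replicates and 1604, 1403 and 1469 in the control replicates. Like Ptgds it was highest in WAS replicates 1 and 3, and WAS replicate 2 lay among the control libraries. It varied least of the 9 genes, 1.28-fold over the 6 libraries, and its group levels were 165 ± 12.5 CPM and 145 ± 8.99 CPM (SD, n = 3 each), with a log2 fold change of 0.15 (SE 0.089, adjusted p = 0.784 by edgeR). The 95% interval from -0.048 to 0.34 was the narrowest of the 9. Ptges2 (chr2:32395896-32405772, plus strand), the membrane-associated synthase 2, had 211, 148 and 177 reads in the WAS replicates and 166, 184 and 162 in the control replicates. WAS replicate 1 was the highest, the groups overlapped, and the log2 fold change of 0.10 (adjusted p = 0.944 by edgeR) was -0.015 without it. Ptges (chr2:30889471-30929863, minus strand) encodes the inducible microsomal synthase that is coupled to COX-2. It had 20, 27 and 13 reads in the WAS replicates and 20, 22 and 10 in the control replicates, with replicate 2 highest and replicate 3 lowest in both groups. Its log2 fold change of 0.26 had a 95% interval from -0.73 to 1.25 (adjusted p = 0.951 by edgeR), and without WAS replicate 2 it was -0.064. Ptges and Ptgs2 did not share their order of libraries, since the lowest Ptgs2 library, WAS replicate 1, held 20 reads of Ptges.

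Over the 9 genes, 1 (Ptgds) had an unadjusted p under 0.05 by edgeR, beside 7.24% of all 15239 genes tested, and 0 passed the study's criteria, which 2.49% of genes passed. At an adjusted p under 0.05, edgeR without a block for the replicate number called 0 of the 9 genes and 0 of all genes, against 1104 genes at an unadjusted p under 0.05. DESeq2 called 0 of the 9 and 22 of all genes (0.144%) at the adjusted threshold, and limma 0 of both. The groups did not overlap for 0 of the 9 genes, beside 12.2% of all genes. The log2 fold changes were above 0 for 4, beside 50.2% of all genes, and below 0 for 5, with a median of -0.043, against 0.000878 over all genes. No end of a member transcript was covered by an exon of another annotated gene, and the last 500 bases of 8 of the 9 shared no stretch of 50 bases with another transcript. Ptges2 shared 3 of 451 such stretches with the gene model Gm42488, and because reads aligned to several places were counted, its counts are uncertain to that extent.

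**Figure D4:**
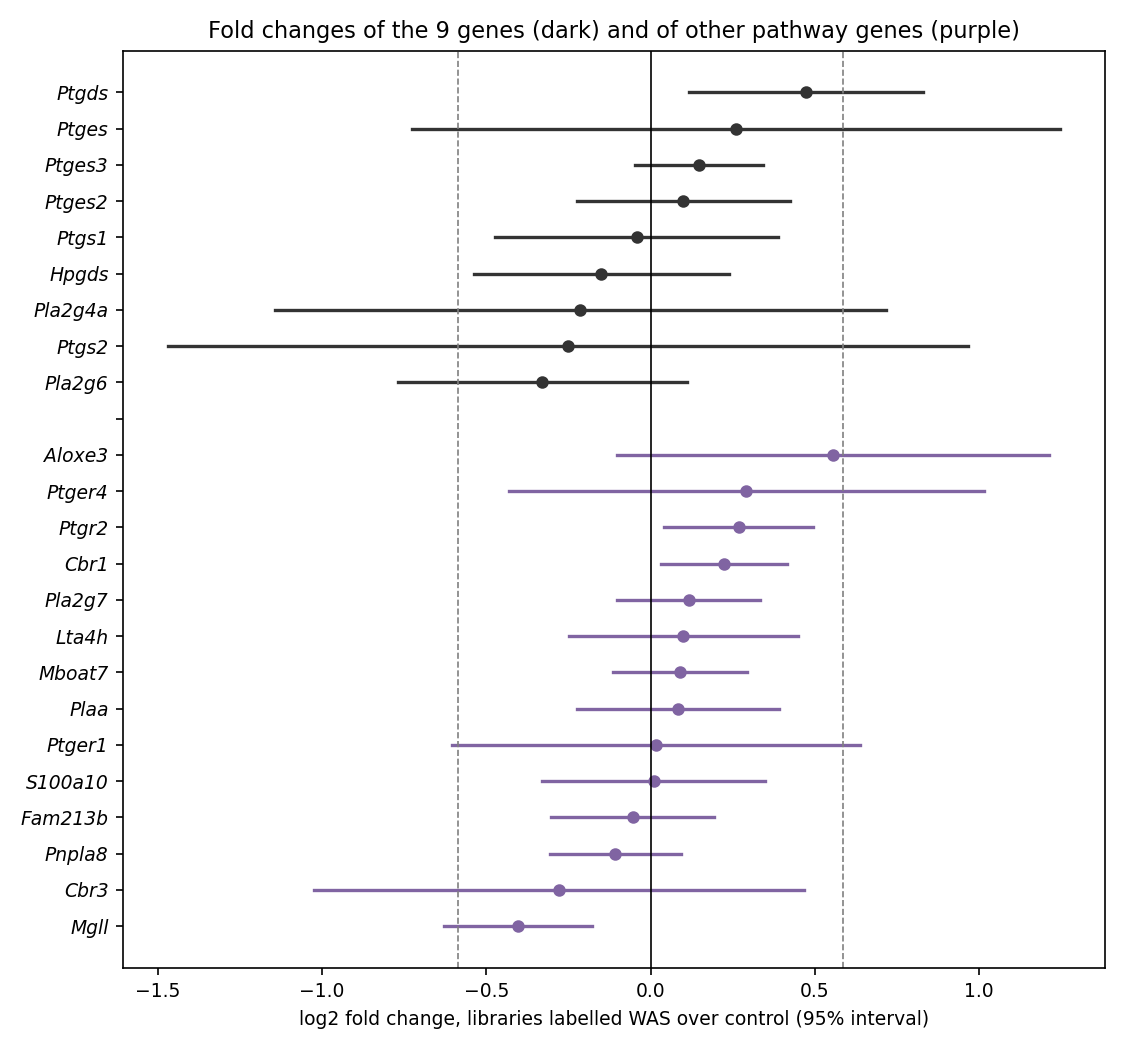
Log2 fold change of libraries labelled WAS over libraries labelled control (points) with 95% intervals (bars) from the edgeR fit, for the 9 genes (dark) and for other genes of the pathway named in the text (purple). The solid line marks no difference and the dashed lines a 1.5-fold difference. The interval of Ptgds, 0.12 to 0.83, is the only one of the 9 that does not reach 0, and those of Mgll, Cbr1 and Ptgr2 also do not.

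The rest of the pathway was followed with 7 lists of 59 further genes, of which 45 passed the filter. Of these 45, the WAS level was above the control level for 2 and below it for 1 at an unadjusted p under 0.05 by edgeR, beside 3.85% and 3.4% of all genes, and 0 passed an adjusted p under 0.05 by edgeR, DESeq2 or limma, with 10 of the 45 left without an adjusted p by DESeq2. The gene lower was Mgll, monoacylglycerol lipase, which splits the endocannabinoid 2-arachidonoylglycerol and is a source of brain arachidonate beside the phospholipases A2. Its counts were 2528, 2561 and 2086 in the WAS replicates and 3402, 3335 and 3043 in the control replicates, with every WAS library below every control library, as for 3.76% of all genes. The log2 fold change was -0.40 (SE 0.10, unadjusted p = 0.00229, adjusted p = 0.498 by edgeR), and without WAS replicate 2 the adjusted p was 0.00947. Markers of cortical excitatory neurons moved with it, since 7 of 7 had log2 fold changes below 0 (median -0.33), while 50.2% of all genes were above 0. Of the 7, 5 lay lower at an unadjusted p under 0.05 by edgeR, beside 3.4% of all genes. The most abundant were Nrgn (5174 CPM, -0.42) and Camk2a (2259 CPM, -0.33). Forebrain neuron markers were below 0 likewise, 6 of 6 with a median of -0.23 and 2 of them at an unadjusted p under 0.05 by edgeR. Their sums did not overlap, at 4718 to 5350 CPM in the WAS and 5445 to 6094 CPM in the control libraries. Of single genes, 12.2% did not overlap between the groups. The part of these neuronal markers in the values of Mgll was not tested.

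The genes higher at an unadjusted p under 0.05 were Cbr1 and Ptgr2, but limma gave an unadjusted p of 0.0511 for Cbr1 and DESeq2 one of 0.0589 for Ptgr2, and neither passed that threshold in edgeR when control replicate 1, control replicate 3 or WAS replicate 3 was left out, nor did Cbr1 without WAS replicate 1. Cbr1, the carbonyl reductase that can turn prostaglandin E2 into prostaglandin F2 alpha, had 133, 121 and 129 CPM in the WAS replicates and 104, 115 and 101 CPM in the control replicates (log2 fold change 0.22, SE 0.087, adjusted p = 0.631 by edgeR). It shared 33 of 451 stretches of 50 bases at its end with the gene model Gm5678, so its counts are uncertain. Ptgr2, prostaglandin reductase 2, which inactivates 15-keto-prostaglandins, had 36.3, 34.8 and 37.1 CPM against 29.3, 30.0 and 28.3 CPM (log2 fold change 0.27, SE 0.10, adjusted p = 0.625 by edgeR). Its last exon lies over that of the antisense gene Gm47484. In both genes every WAS library lay above every control library, as in 8.42% of all genes. In all, the groups did not overlap for 6 of the 45 genes, beside 12.2% of all genes, and the other 3, low in abundance and named after their values were seen, had an unadjusted p above 0.05 in edgeR. Ptgfr, the prostaglandin F receptor, had 4, 7 and 1 reads in the WAS and 11, 8 and 14 in the control libraries (log2 fold change -1.39, adjusted p = 0.702 by edgeR, unadjusted p = 0.0361 by limma). Ptgr1, prostaglandin reductase 1, had 9, 11 and 12 reads against 5, 3 and 7 (log2 fold change 1.11, adjusted p = 0.712 by edgeR, unadjusted p = 0.0135 by limma). Hpgd, which starts prostaglandin breakdown, had 4.07, 3.03 and 5.31 CPM against 2.67, 2.70 and 2.61 CPM (log2 fold change 0.60, adjusted p = 0.719 by edgeR).

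Of the 20 other phospholipases A2, 9 were tested and 9 had at most 3 reads in every library, and the most abundant were Pla2g7 (103 CPM, log2 fold change 0.12), the hydrolase of platelet-activating factor, and Pnpla8 (68.5 CPM, -0.11), a calcium-independent enzyme. Both were more abundant than Pla2g6 and Pla2g4a in every library, and so were Pla2g16 (60.3 CPM, 0.17) and Pla2g12a (44.3 CPM), named after their values were seen. Of 9 prostanoid receptors, 7 were tested and 0 had an unadjusted p under 0.05 by edgeR (smallest adjusted p 0.702), beside 7.24% of all genes. The highest were Ptger1 (5.38 CPM, log2 fold change 0.015) and Ptger4 (2.51 CPM, 0.29), receptors of prostaglandin E2, while the prostaglandin D2 receptors Ptgdr and Ptgdr2, named after their values were seen, had 0.678 and 1.65 CPM beside the 1765 CPM of the synthase Ptgds. The prostaglandin F synthase Fam213b had 51.7 CPM and a log2 fold change of -0.054. Cbr3, a carbonyl reductase related to Cbr1, had 16.5 CPM and a log2 fold change of -0.28. Of 8 lipoxygenase pathway genes tested, 0 had an unadjusted p under 0.05 by edgeR, again beside 7.24% of all genes. With so few genes in either list, a count of 0 is not read as a result. The log2 fold change was 0.10 for the leukotriene A4 hydrolase Lta4h and 0.56 for the epidermal lipoxygenase Aloxe3. Mboat7, which returns arachidonate to phosphatidylinositol, had a log2 fold change of 0.089, and the annexin partner S100a10 and the phospholipase activator Plaa had 0.010 and 0.084.

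Immediate early genes, the class to which Ptgs2 belongs, were set beside it. Of 20 tested, 6 had log2 fold changes above 0 and 3 below 0 at an unadjusted p under 0.05 by edgeR, beside 3.85% and 3.4% of all genes, and 0 at an adjusted p under 0.05 by edgeR or limma, with a median log2 fold change of 0.29. Jun had 96.6, 72.9 and 117 CPM in the WAS replicates and 65.0, 59.2 and 63.6 CPM in the control replicates (log2 fold change 0.57, adjusted p = 0.496 by edgeR), whereas Egr1 had 437 to 500.4 CPM against 537 to 674 CPM (log2 fold change -0.42, adjusted p = 0.477 by edgeR). DESeq2 called Egr1 alone of the 20, at an adjusted p of 0.0408. The groups of Jun and Egr1 did not overlap, in opposite directions, as for 12.2% of all genes. Both were named after their values were seen, as those with the smallest p in each direction. The groups of Ptgs2 overlapped, and so did those of other genes of the class, among them Arc, Fosb and Nr4a1. The interval of Ptgs2, -1.47 to 0.97 on the log2 scale, contained the estimates of Jun and Egr1.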

How the data were processed

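Forebrain RNA of 3 mice labelled WAS and 3 labelled control was analysed, 1 library per mouse. The authors made the deposited read counts from QuantSeq 3′ mRNA-Seq reads, aligned with Bowtie2 and counted per gene, unique and multiple alignments alike, with Bedtools, and the labels name the build mm10. The versions and the gene annotation are not given in the sources used here. The sources used here describe no molecular identifiers, so intervals cover counting error only.

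The 9 genes were selected by symbol. Levels are CPM, the counts scaled to a library total of 1000000. Fold changes come from TMM-scaled counts (factors 0.976 to 1.01) and edgeR 4.0.16 (glmQLFit and glmQLFTest) in R 4.3.3, over the 15239 genes that averaged at least 2 on the log2 scale after quantile normalization with 1 count added, with Benjamini-Hochberg adjustment over all of them. Standard errors are the log2 fold change over the square root of F, and 95% intervals use the total degrees of freedom. The edgeR test was also run on simulated counts, drawn with the spreads that the fit had estimated. Each of the alternatives, total-count scaling, DESeq2 1.42.0, limma 3.58.1 on quantile-normalized log2 counts, no filter, filterByExpr, a block for the replicate number and the omission of each library in turn, was fitted over the whole table. Coordinates, exons and shared ends are from GENCODE M21 on GRCm38, the assembly that mm10 names, and promoters from RefSeq.

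The members and the gene lists were chosen with earlier results of these data known. From each pathway list the genes with an unadjusted p under 0.05 and the 2 most abundant are named, from marker lists the 2 most abundant, and for Ptgds and Ptgs2 the 3 genes nearest in profile. Of the immediate early genes only a few are named. No protein sequences were used here.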

Additional observations from a re-analysis of the deposited data

How the results depend on the processing

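The direction of Ptgds, Ptges3, Pla2g4a and Pla2g6 was the same under every alternative (with 1 library left out, Pla2g4a ranged from -0.44 to -0.066 and Pla2g6 from -0.50 to -0.16), while 5 genes changed sign when 1 library was left out. Ptgs1 went from -0.043 to 0.0099 without WAS replicate 1, 0.088 without WAS replicate 3 and 0.048 without control replicate 3 (range -0.25 to 0.088). Ptgs2 reached 0.22 without WAS replicate 1 and 0.21 without the second control library (range -0.96 to 0.22). Ptges was -0.064 without WAS replicate 2 (range -0.064 to 0.51), Ptges2 -0.015 without WAS replicate 1 (range -0.015 to 0.18) and Hpgds 0.00014 without control replicate 2 (range -0.29 to 0.00014). None of these values passed a test in edgeR.

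With 1 library left out, the log2 fold change of Ptgds ranged from 0.33 to 0.65, and its adjusted p over all alternatives from 0.00443 to 0.9998. The count of genes at the study's criteria ranged from 261 to 831 and at an adjusted p under 0.05 from 0 to 484, each highest without WAS replicate 2. DESeq2 called 22 genes at the adjusted threshold. Of the 9 genes, 0 to 1 met the study's criteria and 0 to 3 had an unadjusted p under 0.05. The highest counts were those without WAS replicate 2, with Ptgds at the criteria (beside 5.45% of all genes) and Ptgds, Ptges3 and Pla2g6 at the unadjusted threshold (beside 13.7%), and limma on quantile-normalized log2 counts gave 0. With the replicate number as a block, edgeR called 49 genes (0.322%) at an adjusted p under 0.05 and Ptgds had a log2 fold change of 0.46 with an adjusted p of 0.0444. The numbers are not taken to pair the samples, since deviations of same-numbered libraries correlated at 0.0662, 0.0846 and 0.0873, although each library correlated best with its own number, a hint from the data and not the design. The cause of these shifts was not tested. Total-count scaling moved the median log2 fold change of all genes from 0.000878 to 0.0377. Depth limits Ptges and Pla2g4a, with under 30 reads in every library.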
